A study of Homo sapiens with 21 samples.

Results

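Drug tolerance in PC9, an EGFR-mutant human lung adenocarcinoma cell line, was described across all genes from 4 of the 21 RNA-seq libraries of the series. The 4 libraries were chosen by their labels. The tolerant cells were 1 library of PC9 made tolerant to gefitinib with 40 nM for 14 days and 1 library of PC9 made tolerant to osimertinib with 20 nM for 14 days. The untreated cells were 1 library of parental PC9, sensitive to both drugs, and 1 library of PC9 infected with a lentivirus that carries a scrambled control sequence and selected in puromycin. The parental library is labelled VEH, which probably stands for vehicle, and the scrambled control is labelled Ctrl. The 2 drugs served as repeats of tolerance, and each library was 1 sample.

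The same 4 kinds of library of HCC827, another EGFR-mutant lung adenocarcinoma line, were used to estimate the spread between libraries and to ask whether a change differed between the lines. The scrambled control came from the authors' tables of miRNA overexpression and inhibition, whereas the other 3 PC9 libraries came from their table of tolerance, so table, lentiviral infection and puromycin are carried by 1 untreated library alone. No label says that the libraries of a group came from separate cultures, so the p-values measure the spread between these libraries. That spread includes drug and dose among tolerant cells, and infection, puromycin, table and the VEH or Ctrl label among untreated cells. The rest of it may be technical. Tolerance and drug exposure cannot be told apart.

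EGFR is a receptor tyrosine kinase that signals through the RAS-ERK and PI3K-AKT pathways and drives growth in lines such as PC9. Gefitinib and osimertinib block its kinase, and cells that survive the drug without a resistance mutation are called drug-tolerant and usually divide slowly. When PI3K-AKT signalling is low, FOXO transcription factors enter the nucleus and switch on a set of stress and growth-arrest genes, while MYC-driven production of ribosomes and entry into S phase normally decline.

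The 4 PC9 libraries held between 18891000 and 26972727 estimated counts, and the 4 HCC827 libraries between 20752211 and 26332711. Epithelial keratins and EPCAM were high in all 4 PC9 libraries: KRT8 had 3006 and 3000 CPM (counts divided by the TMM-scaled library size) in gefitinib-tolerant and osimertinib-tolerant cells, and 2427 and 4002 CPM in parental and scrambled control cells. NKX2-1 and NAPSA, which mark lung alveolar lineage, were under 1 CPM in all 4, so the label rests on the epithelial markers and on EGFR. EGFR itself had 913 and 726 CPM in tolerant cells, and 1250 and 1059 CPM in untreated cells (log2 fold change -0.49, SE 0.24, edgeR adjusted p = 0.263). The scrambled control stood apart from the other 3 PC9 libraries. The 13 mitochondrially encoded genes summed to 35875 and 30507 CPM in gefitinib-tolerant and osimertinib-tolerant cells, and 38333 CPM in parental and 14922 CPM in scrambled control cells. The 43 cytoplasmic ribosomal protein genes summed to 29660 and 22198 CPM in tolerant cells, and 29341 CPM in parental and 55017 CPM in scrambled control cells.

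Of 19934 genes tested, 275 (1.38%) changed in tolerant PC9 relative to untreated PC9 at a Benjamini-Hochberg adjusted p under 0.05 (quasi-likelihood test in edgeR). 157 genes (0.788%) were higher and 118 (0.592%) were lower, and 4452 genes had an unadjusted p under 0.05. The higher genes had a median log2 fold change of 2.13 and the lower genes one of -1.46, beside 0.05 over all genes tested. Both tolerant libraries lay beyond both untreated libraries for all 275 genes. Over all genes tested, both tolerant libraries were above both untreated libraries for 28.6% and below both for 22.3%. DESeq2 called 2111 genes, of which 849 were higher and 1262 lower (40.2% higher, against 57.1% by edgeR).

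The number of calls depended on single libraries. Without the osimertinib-tolerant library edgeR called 0 genes, with 2436 at an unadjusted p under 0.05, and without the scrambled control it called 1. It called 141 genes without the gefitinib-tolerant library and 621 without the parental library. The HCC827 libraries, which set part of the spread, mattered too: 28 and 26 genes were called without the gefitinib-tolerant and the osimertinib-tolerant one, and 122 without the HCC827 scrambled control. All 275 genes had an unadjusted p under 0.05 in each of these 7 fits. Their sign cannot change in them, since the groups do not overlap in any of the 275. A fit against parental cells alone left out the scrambled control of both lines, so each line had 1 untreated library. The median log2 fold change over the genes tested there was 0.08, and no support for the 275 genes is drawn from it.

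A further pair of drug-free PC9 libraries, infected to overexpress miR-147b or miR-21, took no part in that fit. In 156 of the 157 higher genes both tolerant libraries were above all 4 drug-free libraries, and in 118 of the 118 lower genes they were below all 4. Over all genes tested the shares were 23.5% above and 19.7% below. The 275 genes were chosen on 2 of these 4 drug-free libraries, so the counts describe the additional pair only in part.

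The 12 largest increases included IGFBP5, VTCN1, LRRN1 and COL4A4. IGFBP5, which binds insulin-like growth factors, had 68.6 and 101 CPM in gefitinib-tolerant and osimertinib-tolerant cells, and 3.07 and 4.18 CPM in parental and scrambled control cells. Both tolerant libraries lay far above both untreated ones (log2 fold change 4.55, SE 0.42, edgeR adjusted p = 0.00918). VTCN1, an immune-inhibitory ligand of the B7 family, had 15.9 and 24.4 CPM in tolerant cells, and 0.63 and 1.33 CPM in untreated cells (4.38, SE 0.42, edgeR adjusted p = 0.00918). LRRN1, a leucine-rich repeat membrane protein, had 25.0 and 49.5 CPM in tolerant cells, and 1.14 and 3.39 CPM in untreated cells (4.05, SE 0.60, edgeR adjusted p = 0.0391). COL4A4, a basement membrane collagen chain, had 11.7 and 40.9 CPM in tolerant cells, and 1.81 and 2.51 CPM in untreated cells (3.61, SE 0.67, edgeR adjusted p = 0.048). In these 4 genes the osimertinib-tolerant library was the highest of the 4 libraries.

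ARID5B, RASGRP1 and YPEL2 were also among the 12 largest increases. ARID5B, a DNA-binding chromatin regulator, had 22.3 and 40.8 CPM in tolerant cells, and 2.56 and 2.36 CPM in untreated cells (log2 fold change 3.67, SE 0.34, edgeR adjusted p = 0.00918). RASGRP1, an exchange factor that activates RAS, had 12.7 and 39.6 CPM in tolerant cells, and 2.09 and 1.57 CPM in untreated cells (3.83, SE 0.58, edgeR adjusted p = 0.0375). The untreated libraries were close to each other in both genes, and the tolerant libraries differed by more. Within the YPEL family of small zinc-binding proteins, YPEL1, YPEL2, YPEL3 and YPEL5 all rose, with log2 fold changes of 2.28, 3.54, 2.03 and 2.79, and edgeR adjusted p between 0.00918 and 0.0477. YPEL5 had 46.1 and 62.3 CPM in tolerant cells, and 7.67 and 8.02 CPM in untreated cells. YPEL1, YPEL3 and YPEL5 are named here because their family member YPEL2 was among the 12 largest increases, and were chosen after their values were seen.

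Among genes that restrain PI3K signalling or respond to FOXO factors, 4 of 19 tested rose and 0 fell, beside 0.788% and 0.592% of all genes. Their median log2 fold change was 0.91 beside 0.05 over all genes. Both tolerant libraries were above both untreated libraries in 13 of the 19 and below both in 1, beside 28.6% and 22.3% of all genes. PIK3IP1, a membrane inhibitor of PI3K, had 27.9 and 27.2 CPM in tolerant cells, against 1.5 CPM in parental and 4.92 CPM in scrambled control cells (log2 fold change 3.11, SE 0.47, edgeR adjusted p = 0.0383). KLHL24, a ubiquitin ligase adaptor, had 38.4 and 48.9 CPM in tolerant cells, and 4.84 and 6.59 CPM in untreated cells (2.93, SE 0.25, edgeR adjusted p = 0.00918). CCNG2, a cyclin that accompanies cell cycle arrest, had 44.6 and 29.9 CPM in tolerant cells, and 9.21 and 9.24 CPM in untreated cells (2.01, SE 0.26, edgeR adjusted p = 0.0203). CITED2, a transcriptional co-regulator, was the fourth, at 57.6 and 79.9 CPM in tolerant cells, and 13.1 and 25.8 CPM in untreated cells (1.82, SE 0.33, edgeR adjusted p = 0.0473). In none of these 4 genes did the groups overlap. INSR, the insulin receptor, had 18.0 and 12.5 CPM in tolerant cells, and 5.23 and 7.72 CPM in untreated cells, and did not pass (1.24, edgeR adjusted p = 0.0696). DEPTOR was lower in both tolerant libraries, at 0.461 and 0.2 CPM, against 0.59 and 1.03 CPM in untreated cells. IRS1, IRS2, GADD45A, ARRDC3 and TRIB2 had overlapping groups. TRIB2 had 51.9 CPM in gefitinib-tolerant and 3.49 CPM in osimertinib-tolerant cells, and 39.2 and 42.6 CPM in untreated cells.

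The forkhead motif GTAAACA, to which FOXO factors bind, was searched on either strand. It was present in 6 of 112 promoters of the higher genes (5.36%), beside 2.5% of the promoters of all genes tested. This motif did not stand out among those searched. An interferon response motif was present in 7 of the 112 (6.25%, beside 2.83%). A motif of AP-1 factors was present in 11 (9.82%, beside 5.31%). Both E2F motifs given further below were present in 0. The shares were not tested against each other. A promoter here ran from 250 bases before to 50 after the annotated start, in RefSeq's GRCh38.p14 table, whose symbols matched 12904 of the genes tested. The 4 promoters below belong to genes outside that list that rose, and they are shown for the match. Each line gives 60 of the 250 bases upstream of the start, 5′ to 3′ on the gene's strand, with the motif or its reverse complement in capitals:
C10orf10 (DEPP1 in RefSeq), chr10:44978957-44979016, minus strand: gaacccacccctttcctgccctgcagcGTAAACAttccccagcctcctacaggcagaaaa
HBP1, chr7:107168803-107168862, plus strand: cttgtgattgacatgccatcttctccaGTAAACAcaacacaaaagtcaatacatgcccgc
TCP11L2, chr12:106302483-106302542, plus strand: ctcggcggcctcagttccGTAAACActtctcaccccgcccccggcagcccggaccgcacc
GRAMD1C, chr3:113897403-113897462, plus strand: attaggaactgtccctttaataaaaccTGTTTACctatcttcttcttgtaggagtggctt

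C10orf10, a gene known as a FOXO target, had 20.2 and 11.8 CPM in tolerant cells, and 1.5 and 2.11 CPM in untreated cells (log2 fold change 3.15, SE 0.38, edgeR adjusted p = 0.0174). HBP1, a repressor of cell cycle genes, had 59.5 and 60.1 CPM in tolerant cells, and 12.4 and 13.3 CPM in untreated cells (2.22, SE 0.25, edgeR adjusted p = 0.0148). TCP11L2 had 12.9 and 14.1 CPM in tolerant cells, and 1.18 and 1.87 CPM in untreated cells (3.15, SE 0.37, edgeR adjusted p = 0.0159). GRAMD1C, which encodes a sterol transfer protein, had 12.6 and 12.5 CPM in tolerant cells, and 1.93 and 1.62 CPM in untreated cells (2.81, SE 0.33, edgeR adjusted p = 0.0159). In HBP1 and GRAMD1C the 2 tolerant libraries were nearly equal, and in all 4 genes the groups did not overlap. HBP1 and GRAMD1C were named for their motif, after their values were seen. The motif match is a description of letters in these windows and not evidence of binding.

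**Figure D1:**
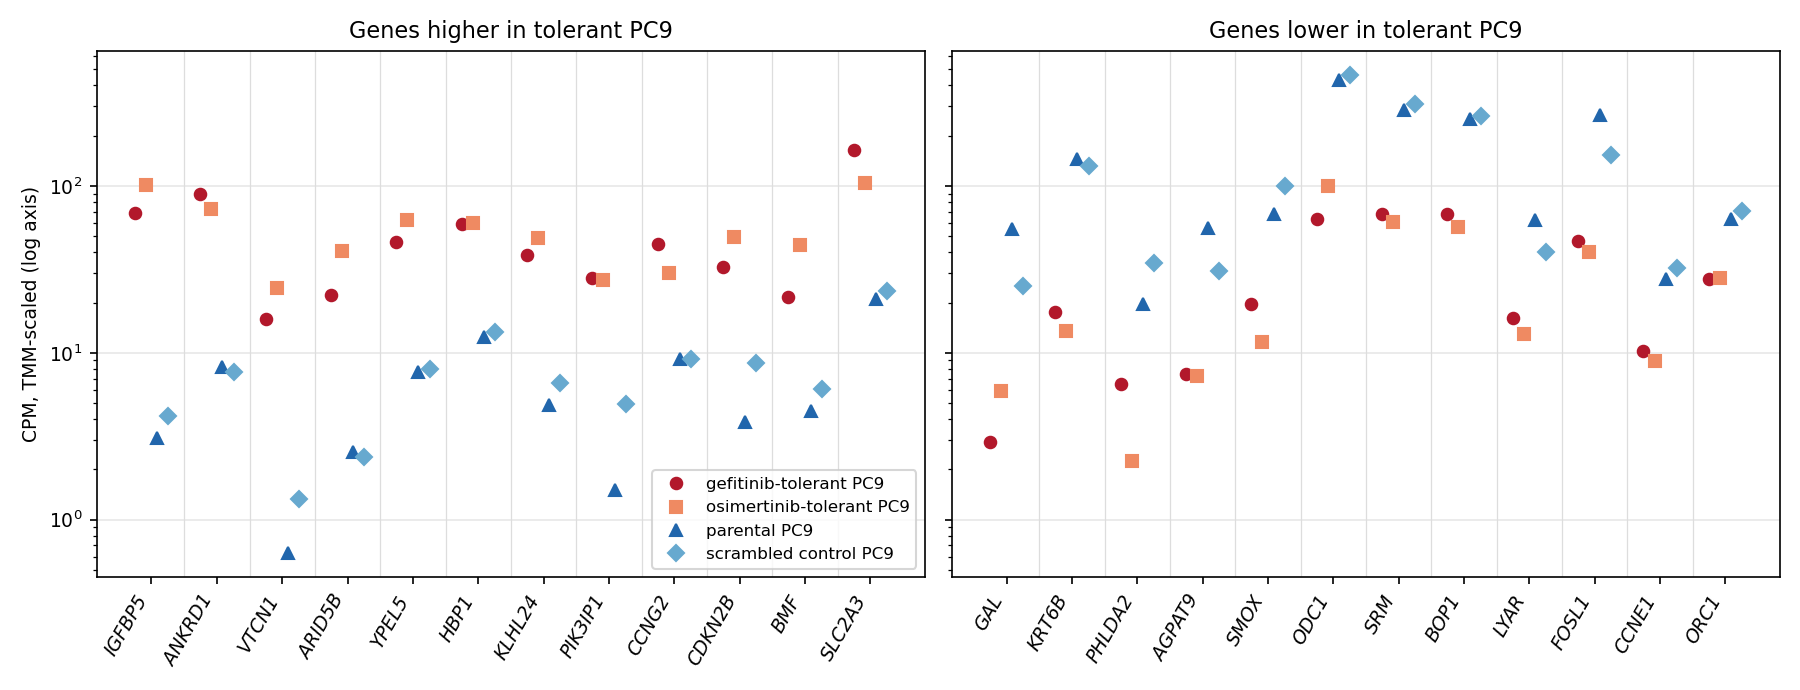
Levels of 12 genes that rose (left) and 12 that fell (right) in tolerant PC9, in CPM on a log axis, with 1 point per library. In every gene shown, the gefitinib-tolerant and osimertinib-tolerant libraries lie on the same side of the parental and scrambled control libraries, as for IGFBP5 at 68.6 and 101 CPM against 3.07 and 4.18 CPM.

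The lower genes included some of ribosome production and polyamine synthesis. Of 25 genes listed for ribosome biogenesis and MYC targets, 8 passed as lower and 0 as higher, beside 0.592% and 0.788% of all genes. Their median log2 fold change was -1.03. Both tolerant libraries were below both untreated libraries in 22 of the 25, beside 22.3% of all genes. ODC1, the rate-limiting enzyme of polyamine synthesis, had 63.1 and 99.3 CPM in tolerant cells, and 431 and 464 CPM in untreated cells (-2.46, SE 0.27, edgeR adjusted p = 0.0148). SRM, the next enzyme of that pathway, which makes spermidine, had 68.0 and 60.8 CPM in tolerant cells, and 285 and 309 CPM in untreated cells (-2.21, SE 0.29, edgeR adjusted p = 0.0206). SMOX, which oxidises spermine, had 19.7 and 11.6 CPM in tolerant cells, and 67.7 and 100 CPM in untreated cells (-2.42, SE 0.31, edgeR adjusted p = 0.0198). All 3 enzymes were lower in both tolerant libraries than in either untreated library.

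Factors that process ribosomal RNA made up the rest of the calls in that list. BOP1, needed for maturation of the large subunit, had 67.6 and 56.5 CPM in tolerant cells, and 251 and 261 CPM in untreated cells (log2 fold change -2.04, SE 0.21, edgeR adjusted p = 0.0125). LYAR, a nucleolar regulator of cell growth, had 16.2 and 13.0 CPM in tolerant cells, and 62.5 and 40.4 CPM in untreated cells (-1.81, SE 0.29, edgeR adjusted p = 0.0391). NOP56 and FBL, which are core proteins of the box C/D small nucleolar ribonucleoprotein that methylates ribosomal RNA, fell by 1.47 and 1.17 on the log2 scale (edgeR adjusted p = 0.0405 and 0.0485). NOP2 and NOP16 fell by 1.11 and 1.34 (edgeR adjusted p = 0.0477 and 0.0436). In the members that did not overlap between the groups, the parental and scrambled control libraries could still differ from each other: NCL, nucleolin, had 624 and 542 CPM in tolerant cells, against 1700 CPM in parental and 1116 CPM in scrambled control cells (-1.27, edgeR adjusted p = 0.0631).

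The structural proteins of the ribosome gave no such call. Over all 19934 genes tested, 4452 had an unadjusted p under 0.05, and DESeq2 called 2111 and limma voom 325. Of 43 cytoplasmic ribosomal protein genes, edgeR called 0, with 11 at an unadjusted p under 0.05, while DESeq2 called 7 and limma voom 0. Their median log2 fold change was -0.68, but the single comparisons of gefitinib-tolerant cells ran from 0.08 against parental cells to -0.89 against the scrambled control. The summed level of these genes was 29660 and 22198 CPM in tolerant cells, against 29341 CPM in parental and 55017 CPM in scrambled control cells, so the difference depended on which untreated library was used.

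The E-box CACGTG, to which MYC binds, was present in 15 of 90 promoters of the lower genes (16.7%), beside 9.51% of the promoters of all genes tested. The motif is its own reverse complement, and a match does not show that MYC binds there. It is shown for SRM and for CCDC86, a nucleolar protein that fell by 1.78 on the log2 scale (48.9 and 45.7 CPM in tolerant cells, 164 and 161 CPM in untreated cells, edgeR adjusted p = 0.0148). The motif TTTGGCGC, to which E2F factors bind, was present in 2 of the 90 promoters of the lower genes (2.22%), beside 0.963% of the promoters of all genes tested, and a further E2F motif searched, TTTCCCGC, in 2.22% beside 2.39%. TTTGGCGC is shown for CDC25A, the phosphatase that activates cyclin-dependent kinases at the entry to S phase. All 3 lines give 60 of the 250 bases upstream of the start from the same RefSeq table, 5′ to 3′ on the gene's strand, with the motif in capitals:
SRM, chr1:11060185-11060244, minus strand: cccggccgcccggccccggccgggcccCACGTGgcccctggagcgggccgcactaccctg
CCDC86, chr11:60842053-60842112, plus strand: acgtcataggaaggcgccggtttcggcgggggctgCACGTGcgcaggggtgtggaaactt
CDC25A, chr3:48188428-48188487, minus strand: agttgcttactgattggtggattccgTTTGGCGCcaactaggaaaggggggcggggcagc

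Genes of DNA replication had lower levels in both tolerant PC9 libraries than in the untreated ones. In bulk RNA, fewer cycling cells and less RNA per cycling cell cannot be told apart. All 25 genes listed for DNA replication and S phase were lower in both tolerant libraries than in either untreated library, beside 22.3% of all genes. EdgeR called 3 of the 25 lower and 0 higher, beside 0.592% and 0.788% of all genes. DESeq2 called 22 of the 25 and limma voom 3, beside 2111 and 325 of all 19934 genes. The median log2 fold change of the list was -1.09. CCNE1, the cyclin that drives the start of S phase, had 10.3 and 8.94 CPM in tolerant cells, and 27.8 and 32.1 CPM in untreated cells (-1.63, SE 0.25, edgeR adjusted p = 0.0391). ORC1, a subunit of the complex that marks replication origins, had 27.7 and 28.2 CPM in tolerant cells, and 63.6 and 71.1 CPM in untreated cells (-1.27, SE 0.23, edgeR adjusted p = 0.0469). GINS1, part of the replicative helicase, had 37.8 and 37.0 CPM in tolerant cells, and 75.6 and 98.8 CPM in untreated cells (-1.22, SE 0.23, edgeR adjusted p = 0.0477). CDC25A, outside the list, had 17.1 and 16.1 CPM in tolerant cells, and 56.1 and 76.9 CPM in untreated cells (-2.0, SE 0.25, edgeR adjusted p = 0.0184). The tolerant libraries were close to each other in ORC1, GINS1 and CDC25A and lay below both untreated libraries in all 4 genes.

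Of 25 genes of G2/M and mitosis, edgeR called 0, with 7 at an unadjusted p under 0.05, while DESeq2 called 6 and limma voom 1. Over all 19934 genes, 4452 had an unadjusted p under 0.05, and DESeq2 called 2111 and limma voom 325. The median log2 fold change of the 25 genes was -0.52. The medians were -0.85 and -0.78 for gefitinib-tolerant and osimertinib-tolerant cells against parental cells, and -0.16 and -0.10 against the scrambled control, whose own median against parental cells was -0.68. MKI67, the proliferation marker, had 300 and 311 CPM in tolerant cells, against 882 CPM in parental and 442 CPM in scrambled control cells (-1.11, edgeR adjusted p = 0.151). TOP2A, the topoisomerase of dividing cells, had 277 and 255 CPM in tolerant cells, against 551 CPM in parental and 264 CPM in scrambled control cells, so its groups overlapped. The S-phase list did not share this split, with medians of -0.78 and -1.0 against parental cells and of -1.09 and -1.21 against the scrambled control.

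Cyclin-dependent kinase inhibitors and D-type cyclins moved in both directions, with 1 of 10 higher and 1 lower, beside 0.788% and 0.592% of all genes. CDKN2B, the p15 inhibitor of CDK4 and CDK6, had 32.6 and 49.7 CPM in tolerant cells, and 3.86 and 8.70 CPM in untreated cells (log2 fold change 2.72, SE 0.43, edgeR adjusted p = 0.0391). CCND3, a D-type cyclin, had 37.7 and 39.0 CPM in tolerant cells, and 72.8 and 87.9 CPM in untreated cells (-1.07, SE 0.20, edgeR adjusted p = 0.0485). Neither gene overlapped between the groups. CCND1 had 523 and 444 CPM in tolerant cells, and 586 and 595 CPM in untreated cells, and did not pass (-0.29, edgeR adjusted p = 0.606).

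**Figure D2:**
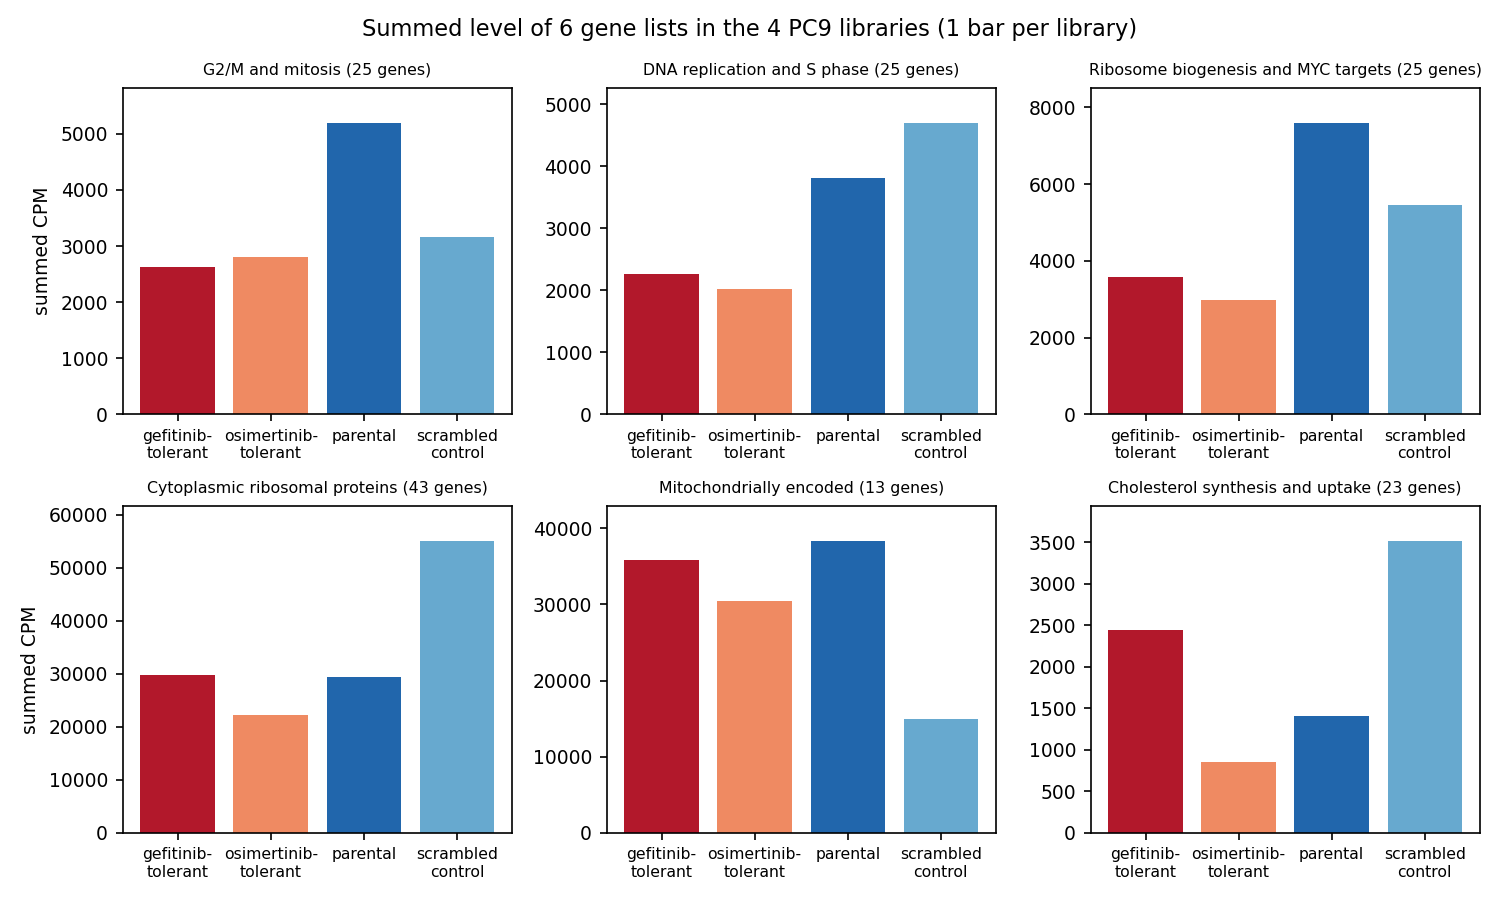
Summed CPM of 6 gene lists in the 4 PC9 libraries, with 1 bar per library and axes that start at 0. The S-phase and ribosome biogenesis sums of both tolerant libraries are below both untreated libraries, whereas the scrambled control is far from the parental library in ribosomal protein, mitochondrial and cholesterol genes, at 55017, 14922 and 3515 CPM against 29341, 38333 and 1409 CPM.

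YAP is a co-activator that works with TEAD factors and responds to cell shape and contact. Of 21 of its target genes tested, 5 rose and 0 fell, beside 0.788% and 0.592% of all genes. Their median log2 fold change was 0.86. ANKRD1, a nuclear cofactor widely used as a YAP readout, had 89.3 and 73.2 CPM in tolerant cells, and 8.19 and 7.72 CPM in untreated cells (3.35, SE 0.42, edgeR adjusted p = 0.0197). CTGF, a matrix-associated signalling protein, had 17.0 and 22.2 CPM in tolerant cells, and 4.33 and 2.90 CPM in untreated cells (2.43, SE 0.40, edgeR adjusted p = 0.0405). TGFB2, a ligand of the TGF-beta receptors, had 180 and 335 CPM in tolerant cells, and 66.0 and 47.2 CPM in untreated cells (2.18, SE 0.40, edgeR adjusted p = 0.0473). GADD45B, a stress-response gene, and RBMS3, an RNA-binding protein, were the other two, with log2 fold changes of 1.83 and 3.21 (edgeR adjusted p = 0.049 and 0.0477). AXL, a receptor kinase also listed as a YAP target, had 301 and 442 CPM in tolerant cells, and 456 and 485 CPM in untreated cells (-0.34, edgeR adjusted p = 0.514). FJX1 and AMOTL1 also had lower levels in both tolerant libraries, with log2 fold changes of -0.92 and -0.70, and did not pass.

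2 of 19 genes of the TGF-beta response passed, both as higher, beside 0.788% of all genes. They were TGFB2 and CDKN2B, which are described above. The median of that list was 0.71. Mesenchymal markers gave no call: edgeR called 0 of 22, with 7 at an unadjusted p under 0.05, while DESeq2 called 4 and limma voom 1, and their median was 0.06. Epithelial adhesion genes likewise gave 0 of 24 by edgeR, 7 at an unadjusted p under 0.05, 4 by DESeq2 and 0 by limma voom, with a median of 0.21. Beside both lists, 4452 of all 19934 genes had an unadjusted p under 0.05, and DESeq2 called 2111 and limma voom 325. The mesenchymal list summed to 2841 CPM in gefitinib-tolerant and 7638 CPM in osimertinib-tolerant cells, and 2525 and 1194 CPM in parental and scrambled control cells. COL5A1 had 154 and 526 CPM in tolerant cells, and 99.1 and 50.0 CPM in untreated cells. COL6A1 went the other way, at 68.7 and 71.8 CPM against 159 and 149 CPM.

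The lists of BCL2 family, p53 target, glycolysis and TCA cycle genes held 1 call each, and that of HIF targets held 2. Over all genes tested 1.38% were called. BMF, a pro-apoptotic member of the BCL2 family, had 21.5 and 44.5 CPM in tolerant cells, and 4.49 and 6.10 CPM in untreated cells (log2 fold change 2.64, SE 0.43, edgeR adjusted p = 0.0405). It was the only 1 of 16 members tested to pass. BCL2L11, which encodes BIM, the pro-apoptotic protein usually linked to EGFR inhibition, had 17.6 and 28.1 CPM in tolerant cells, and 26.3 and 16.8 CPM in untreated cells (0.08, edgeR adjusted p = 0.916). TP53INP1, a stress gene, was the 1 of 17 p53 targets to pass, at 7.68 and 9.38 CPM in tolerant cells, and 0.275 and 0.688 CPM in untreated cells (4.17, SE 0.39, edgeR adjusted p = 0.00918).

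SLC2A3, the GLUT3 glucose transporter, was the 1 of 21 glycolysis genes to pass, at 164 and 104 CPM in tolerant cells, and 20.9 and 23.3 CPM in untreated cells (log2 fold change 2.60, SE 0.33, edgeR adjusted p = 0.0197). The list as a whole had a median of -0.47, and GAPDH had 4637 and 3538 CPM in tolerant cells, and 6010 and 6465 CPM in untreated cells (-0.61, edgeR adjusted p = 0.24). 2 of 27 HIF target genes passed as higher. BNIP3L, a mitophagy receptor, had 77.1 and 71.1 CPM in tolerant cells, and 33.8 and 34.0 CPM in untreated cells (1.13, SE 0.19, edgeR adjusted p = 0.0435), and VLDLR, a lipoprotein receptor, had 30.6 and 69.7 CPM in tolerant cells, and 7.95 and 7.82 CPM in untreated cells (2.67, SE 0.50, edgeR adjusted p = 0.0477). IDH3A, a subunit of the NAD-dependent isocitrate dehydrogenase, was the 1 of 20 TCA cycle genes to pass, at 32.7 and 23.7 CPM in tolerant cells, and 82.9 and 61.5 CPM in untreated cells (-1.36, SE 0.25, edgeR adjusted p = 0.0477).

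VHL and SDHD, which encode the HIF ubiquitin ligase subunit and a subunit of succinate dehydrogenase, showed no call in tolerant PC9. VHL had 61.4 and 35.2 CPM in tolerant cells, and 47.8 and 56.5 CPM in untreated cells (log2 fold change -0.11, SE 0.28, edgeR adjusted p = 0.861). SDHD had 64.1 and 51.2 CPM in tolerant cells, and 58.2 and 54.9 CPM in untreated cells (0.03, SE 0.21, edgeR adjusted p = 0.966). The groups overlapped in both genes. The miRNA genes MIR147B and MIR21, which the series manipulates in other libraries, had 0 counts in all 4 PC9 libraries of this comparison, a value that allows up to 0.159 CPM in the shallowest of them (3 counts, counting error only). These poly(A)-selected libraries do not measure mature miRNAs. VMP1, whose locus holds MIR21, had 121 and 117 CPM in tolerant cells, and 56.1 and 63.3 CPM in untreated cells, and did not pass (0.99, SE 0.26, edgeR adjusted p = 0.0894).

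KRT6B, a stress keratin, was among the 12 largest decreases and had 17.5 and 13.5 CPM in tolerant cells, and 144 and 131 CPM in untreated cells (log2 fold change -3.15, SE 0.27, edgeR adjusted p = 0.0103). SPRR2A, a cornified envelope protein, had 2 and 0 counts in gefitinib-tolerant and osimertinib-tolerant cells, and 275 and 356 counts in parental and scrambled control cells. SPRR2D had 1 and 0 counts in tolerant cells, and 268 and 340 counts in untreated cells. SPRR2A and SPRR2D are near-identical neighbours whose reads the counting could have split between them, so no fold change is given for either. The libraries that overexpress miR-147b and miR-21 had 231 and 209 counts of SPRR2A, close to the untreated cells. KRT6A, a near copy of KRT6B, had 50.1 and 86.9 CPM in tolerant cells, and 607 and 470 CPM in untreated cells, and did not pass (-2.98, edgeR adjusted p = 0.0966). Of 25 basal and squamous markers 1 passed as lower and 0 as higher, beside 0.592% and 0.788% of all genes, with a median of -0.80. The log2 fold change was above 0 in 6 of the 25. Both tolerant libraries were below both untreated libraries in 13 and above both in 2, beside 22.3% and 28.6% of all genes. TRIM29 and KRT15 had overlapping groups.

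GAL, PHLDA2, AGPAT9, CLMP and PDE2A were also among the 12 largest decreases. GAL, the neuropeptide galanin, had 2.92 and 5.94 CPM in tolerant cells, and 54.8 and 25.3 CPM in untreated cells (log2 fold change -3.19, SE 0.55, edgeR adjusted p = 0.0435). PHLDA2, a growth-restraining gene that is imprinted in humans, had 6.53 and 2.25 CPM in tolerant cells, and 19.6 and 34.5 CPM in untreated cells (-2.61, SE 0.49, edgeR adjusted p = 0.049). AGPAT9, an enzyme of glycerolipid synthesis, had 7.49 and 7.24 CPM in tolerant cells, and 55.6 and 30.9 CPM in untreated cells (-2.55, SE 0.33, edgeR adjusted p = 0.0197). CLMP, an adhesion molecule, and PDE2A, a phosphodiesterase, fell by 2.89 and 2.68 on the log2 scale (edgeR adjusted p = 0.0405 and 0.0477). In GAL, AGPAT9 and PHLDA2 the untreated libraries differed from each other by more than 1.5-fold, yet the groups did not overlap.

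Most genes listed as output of the ERK pathway, which EGFR feeds, were lower in osimertinib-tolerant than in gefitinib-tolerant cells. FOSL1, an AP-1 subunit induced by ERK, was the 1 of 20 ERK output genes to pass, beside 0.592% of all genes as lower. FOSL1 had 46.5 and 40.2 CPM in gefitinib-tolerant and osimertinib-tolerant cells, and 265 and 154 CPM in parental and scrambled control cells (log2 fold change -2.27, SE 0.36, edgeR adjusted p = 0.0391). The list median was -0.19 for gefitinib-tolerant and -1.48 for osimertinib-tolerant cells against parental cells, and -0.07 and -1.47 against the scrambled control. DUSP6, a phosphatase that ERK induces and that switches ERK off, had 26.9 CPM in gefitinib-tolerant and 1.55 CPM in osimertinib-tolerant cells, and 39.9 and 34.0 CPM in untreated cells. SPRY4, a feedback inhibitor of the pathway, had 29.3 CPM in gefitinib-tolerant and 3.00 CPM in osimertinib-tolerant cells, and 38.8 and 34.7 CPM in untreated cells. ETV5, a transcription factor downstream of ERK, had 73.8 and 14.8 CPM in tolerant cells, and 66.7 and 61.0 CPM in untreated cells. In these 3 genes gefitinib-tolerant cells lay near untreated cells and osimertinib-tolerant cells well below. Other members did not share this. FOSL1 differed little between the drugs (log2 ratio of osimertinib-tolerant over gefitinib-tolerant cells -0.21). EPHA4, FOS and IER3 were higher in osimertinib-tolerant cells (0.59, 0.34 and 0.29). EGR1 and FOS were higher in both tolerant libraries than in both untreated ones. The doses of the drugs differed and each has 1 library, so no test was made between them.

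Across all genes the tolerant libraries were closer to each other than the untreated ones. Among genes with at least 10 CPM in either library, 462 of 10433 (214, or 2.05%, higher and 248, or 2.38%, lower in osimertinib-tolerant cells) were past 2-fold between osimertinib-tolerant and gefitinib-tolerant cells, and 1196 of 10291 (888, or 8.63%, higher and 308, or 2.99%, lower in scrambled control cells) between scrambled control and parental cells. Gefitinib-tolerant cells had 788 genes (7.53%) past 2-fold higher and 520 (4.97%) lower than parental cells, and osimertinib-tolerant cells had 841 (8.03%) higher and 787 (7.52%) lower. Relative to the scrambled control, gefitinib-tolerant cells had 672 (6.38%) higher and 950 (9.02%) lower, and osimertinib-tolerant cells had 869 (8.18%) higher and 1434 (13.5%) lower. These counts have no replicate check, and comparisons with the same untreated library share it. Cholesterol genes showed the spread between the libraries: their summed level was 2439 and 854 CPM in gefitinib-tolerant and osimertinib-tolerant cells, and 1409 and 3515 CPM in parental and scrambled control cells. The groups overlapped, and edgeR called 0 of 23, as did DESeq2 and limma voom with 0 each. An unadjusted p under 0.05 was found in 1 of the 23, beside 4452 of all 19934 genes.

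A list of EGFR family receptors, EGFR included, and of receptor kinases that can bypass EGFR gave no call in tolerant PC9. EdgeR called 0 of 15, with 6 at an unadjusted p under 0.05, while DESeq2 called 5 and limma voom 0. Over all 19934 genes, 4452 had an unadjusted p under 0.05, and DESeq2 called 2111 and limma voom 325. The median log2 fold change of the 15 was 0.03, and it ran from -0.22 to 0.07 over the alternatives. Both tolerant libraries were above both untreated libraries in 6 of the 15 and below both in 4, beside 28.6% and 22.3% of all genes. ERBB3, a partner of EGFR that recruits PI3K, had 189 and 146 CPM in tolerant cells, and 98.6 and 93.3 CPM in untreated cells (log2 fold change 0.80, edgeR adjusted p = 0.112). ERBB2 had 115 and 111 CPM in tolerant cells, and 54.5 and 77.0 CPM in untreated cells (0.78, edgeR adjusted p = 0.115). IGF1R, the receptor whose ligands IGFBP5 binds, had 174 and 173 CPM in tolerant cells, and 124 and 93.7 CPM in untreated cells (0.67, edgeR adjusted p = 0.119). The groups did not overlap in any of these 3 receptors. ROR1, a receptor of Wnt ligands, had 38.1 and 18.9 CPM in tolerant cells, and 66.7 and 48.8 CPM in untreated cells (-1.02, edgeR adjusted p = 0.16). MET had 632 and 746 CPM in tolerant cells, and 506 and 350 CPM in untreated cells (0.69, edgeR adjusted p = 0.221). Its log2 fold change in HCC827 was -2.26. MET was the 1 of the 15 to differ between the lines (difference 2.95, edgeR adjusted p = 0.0211), beside 1.25% of all genes. Among EGFR ligands edgeR called 0 of 9, with 7 at an unadjusted p under 0.05, while DESeq2 called 4 and limma voom 0. The ligands had a median of -0.05, which ran from -0.87 to 0.12 over the alternatives, with 4 of the 9 higher and 4 lower in both tolerant libraries than in both untreated ones. HBEGF had 46.3 and 15.8 CPM in tolerant cells, and 132 and 106 CPM in untreated cells (-1.94, SE 0.44, edgeR adjusted p = 0.0675), and AREG had 3.80 and 1.35 CPM in tolerant cells, and 9.44 and 9.34 CPM in untreated cells (-1.84, edgeR adjusted p = 0.0724). EGF had 8.37 and 10.7 CPM in tolerant cells, and 5.35 and 3.64 CPM in untreated cells (1.08, edgeR adjusted p = 0.174), and BTC, betacellulin, had 4.38 and 4.19 CPM in tolerant cells, and 2.48 and 2.36 CPM in untreated cells (0.82, edgeR adjusted p = 0.181).

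Genes often discussed for drug-tolerant cells were measured in the same fit. Beside them, 4452 of all 19934 genes had an unadjusted p under 0.05, and DESeq2 called 2111 and limma voom 325. Among histone lysine demethylases edgeR called 0 of 15, with 6 at an unadjusted p under 0.05, while DESeq2 called 2 and limma voom 0. KDM5B, a demethylase of active promoters, had 137 and 153 CPM in tolerant cells, and 75.2 and 51.8 CPM in untreated cells (log2 fold change 1.19, edgeR adjusted p = 0.0669), and KDM5A, its relative, had 85.8 and 84.9 CPM in tolerant cells, and 76.2 and 60.6 CPM in untreated cells (0.32, edgeR adjusted p = 0.412). Among 18 aldehyde dehydrogenases edgeR called 0, with 6 at an unadjusted p under 0.05, while DESeq2 called 2 and limma voom 0. ALDH1A3 had 317 and 601 CPM in tolerant cells, and 338 and 260 CPM in untreated cells, so its groups overlapped. Of 21 genes of the NRF2 and glutathione defence edgeR called 0, with 1 at an unadjusted p under 0.05, while DESeq2 called 1 and limma voom 0.

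**Figure D3:**
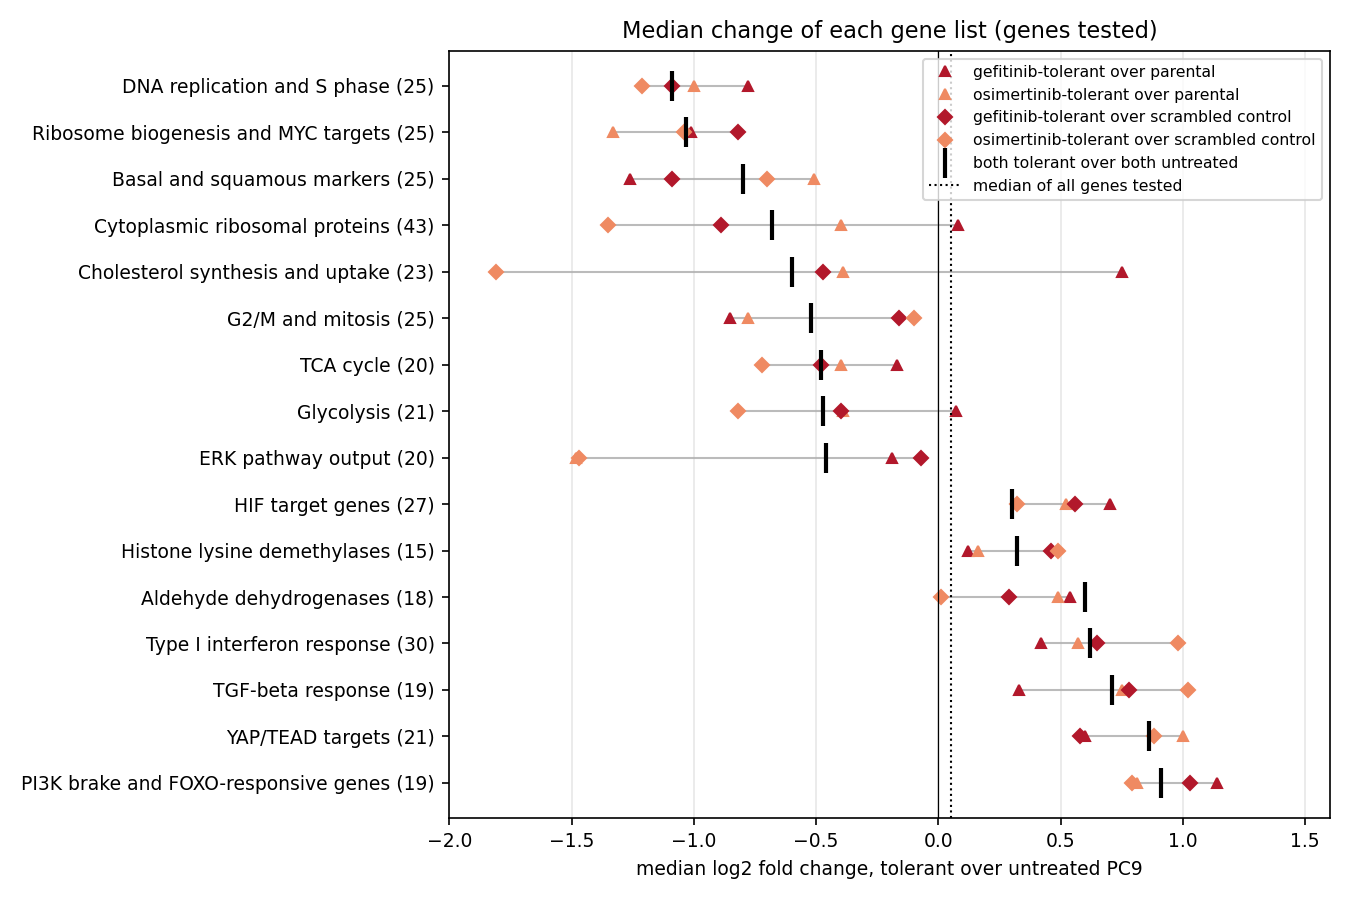
Median log2 fold change of 16 gene lists in tolerant PC9, with the number of genes tested in brackets, for each tolerant library over each untreated library (points) and for both over both (bars). In all 4 single comparisons the S-phase, ribosome biogenesis, basal, G2/M, TCA cycle and ERK lists stay below 0, and the ERK list splits by drug. The PI3K brake, YAP/TEAD, TGF-beta, interferon, HIF, aldehyde dehydrogenase and demethylase lists stay above 0, with aldehyde dehydrogenases as low as 0.01. The ribosomal protein, glycolysis and cholesterol lists change sign, and the cholesterol list runs from -1.81 to 0.75.

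The change in PC9 was then set against that in HCC827 made tolerant to the same drugs at the same doses. The difference between the lines passed for 249 of 19934 genes (1.25%), of which 175 (0.878%) had a higher change in PC9 and 74 (0.371%) a lower one. Without the gefitinib-tolerant HCC827 library edgeR called 0 such genes, with 1767 at an unadjusted p under 0.05. It called 57 without the osimertinib-tolerant and 99 without the parental HCC827 library, and 83 and 90 without the gefitinib-tolerant and the osimertinib-tolerant PC9 library, while DESeq2 called 930 with all libraries. Of the 157 genes higher in tolerant PC9, 147 had a positive log2 fold change in HCC827 and 9 passed the test of the difference. Of the 118 lower genes, 108 had a negative one and 7 passed it. The median log2 fold change in HCC827 was 1.49 for the higher and -1.37 for the lower genes, beside 0.00 over all genes tested. The HCC827 libraries also set part of the spread behind these calls.

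Genes of the 2 cell cycle lists made up 28 of the 249, each with a difference above 0. The G2/M list had a median log2 fold change of -0.52 in PC9 and -3.44 in HCC827. The difference passed as higher in PC9 for 18 of its 25 genes, beside 0.878% of all genes. The S-phase list had medians of -1.09 and -2.46 in PC9 and HCC827, and the difference passed as higher for 10 of 25, beside the same 0.878%. PLK1, a kinase of mitotic entry, had 92.6 and 100 CPM in tolerant and 227 and 153 CPM in untreated PC9, and 6.29 and 8.74 CPM in tolerant and 216 and 177 CPM in untreated HCC827 (difference in log2 fold change 3.73, SE 0.39, edgeR adjusted p = 0.00851). Tolerant HCC827 was below tolerant PC9, whereas the untreated lines had similar levels. The ribosome biogenesis list did not differ in this way, with medians of -1.03 in PC9 and -0.81 in HCC827. ODC1 was the 1 of its 25 genes to pass, beside 0.371% of all genes as lower, with a larger decrease in PC9 (difference -2.09, SE 0.37, edgeR adjusted p = 0.0411). In HCC827 it had 134 and 153 CPM in tolerant cells, and 207 and 166 CPM in untreated cells.

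**Figure D4:**
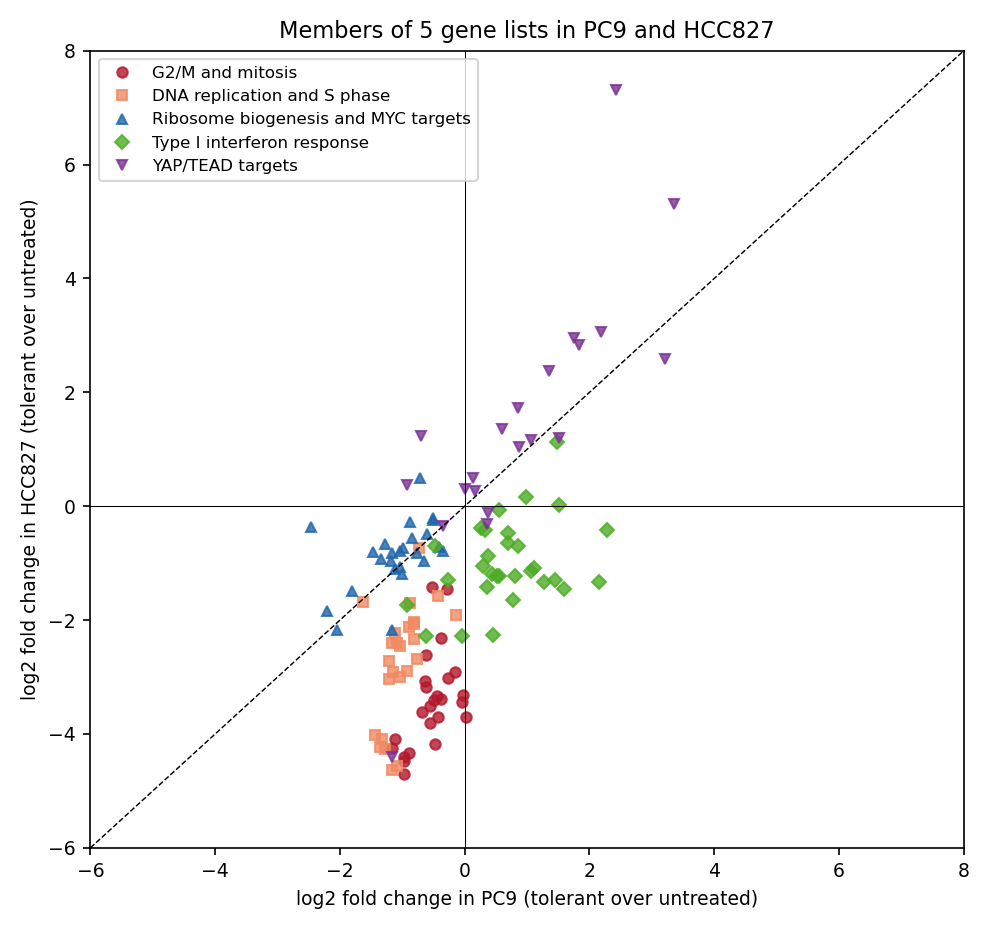
Log2 fold change (tolerant over untreated) of each tested member of 5 gene lists in PC9 (horizontal axis) and HCC827 (vertical axis), with the dashed line marking equal change. Mitosis and S-phase genes lie mostly far below the line, at medians of -0.52 and -1.09 in PC9 against -3.44 and -2.46 in HCC827, ribosome biogenesis genes lie near it, and 30 of 30 interferon genes lie below it, with 23 of 30 when the parental HCC827 library is left out.

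Interferon-response genes had medians of opposite sign in the lines. In PC9 1 of 30 passed as higher and 0 as lower, beside 0.788% and 0.592% of all genes. The median log2 fold change was 0.62 in PC9 and -1.16 in HCC827. The difference was above 0 in all 30, beside 10796 of 19934 genes tested. It passed as higher for 6, beside 0.878% of all genes. The parental HCC827 library stood apart in these genes: the list summed to 1860 and 2064 CPM in tolerant HCC827, against 5868 CPM in parental and 2392 CPM in scrambled control HCC827. In PC9 it summed to 501 and 537 CPM in tolerant cells, and 423 and 360 CPM in untreated cells. Without the parental HCC827 library the median in HCC827 was -0.35, and the difference was above 0 in 23 of 30 and passed for 1. Without the scrambled control of HCC827 the median was -1.53 and the difference passed for 10. IFIT2, an interferon-induced RNA-binding protein, had 6.76 and 8.29 CPM in tolerant PC9, and 1.38 and 1.72 CPM in untreated PC9 (2.28, SE 0.35, edgeR adjusted p = 0.0387). In HCC827 it had 22.1 and 22.0 CPM in tolerant cells, and 37.7 and 20.7 CPM in untreated cells (difference 2.69, SE 0.47, edgeR adjusted p = 0.038). GBP4, an interferon-induced GTPase outside the list, had 27.0 and 34.1 CPM in tolerant PC9, and 5.35 and 3.20 CPM in untreated PC9, while all 4 HCC827 libraries had between 2.30 and 3.85 CPM (difference 3.12, SE 0.50, edgeR adjusted p = 0.0311). Not all interferon genes were higher in tolerant PC9: OAS3 had 60.1 and 60.9 CPM in tolerant cells, and 105 and 81.2 CPM in untreated cells, and ISG15 had overlapping groups. The 18 leukocyte markers, which would mark other cells, summed to 67.9 and 55.4 CPM in tolerant PC9, and 53.6 and 58.2 CPM in untreated PC9. Most of that was CD68, and PTPRC had 2.76 and 0.25 CPM in tolerant and 0.0394 and 0.0492 CPM in untreated PC9. Their part in the result was not tested.

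In total 16 genes passed both tests, and 8 of them had log2 fold changes of opposite sign in the lines. The change within HCC827 was not tested by itself. For these 8 it was -2.36 in CYP26A1 and between -0.44 and 0.75 in the rest, so most changed little in HCC827. CYP26A1, which degrades retinoic acid, had 2.46 and 4.44 CPM in tolerant and 0.157 and 0.0983 CPM in untreated PC9, and 2.56 and 2.56 CPM in tolerant and 14.0 and 12.4 CPM in untreated HCC827 (difference 7.03, SE 0.64, edgeR adjusted p = 0.00851). The untreated PC9 libraries held only a few reads of it. EFNB2 and EFNB1, membrane-bound ligands of Eph receptors, and JAG1, a ligand of Notch receptors, fell in PC9 and had positive fold changes in HCC827. JAG1 had 61.0 and 50.0 CPM in tolerant and 172 and 181 CPM in untreated PC9, and 121 and 104 CPM in tolerant and 103 and 82.8 CPM in untreated HCC827 (difference -1.95, SE 0.31, edgeR adjusted p = 0.0294). The differences were -2.27 and -2.41 for EFNB2 and EFNB1 (edgeR adjusted p = 0.0322 and 0.0295). IL18, a cytokine, and STEAP3, a metalloreductase, were of the same kind with differences of 1.85 and -1.79 (edgeR adjusted p = 0.0429 and 0.0315).

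CTGF and EDN1, which encodes the vasoconstrictor endothelin, rose in PC9 but by less than in HCC827. CTGF had 799 and 935 CPM in tolerant and 3.32 and 7.66 CPM in untreated HCC827, against the 17.0 and 22.2 CPM of tolerant PC9 given above (difference -4.88, SE 0.57, edgeR adjusted p = 0.00897). EDN1 had 40.7 and 69.0 CPM in tolerant and 17.9 and 13.0 CPM in untreated PC9, and 204 and 218 CPM in tolerant and 2.37 and 2.89 CPM in untreated HCC827 (difference -4.50, SE 0.44, edgeR adjusted p = 0.00851). HBEGF, whose change in PC9 did not pass, had 197 and 252 CPM in tolerant and 9.99 and 9.79 CPM in untreated HCC827, the opposite direction to PC9 (difference -6.44, SE 0.66, edgeR adjusted p = 0.00851). The immediate-early genes FOSB and NR4A3 had 266 and 176 CPM and 63.3 and 41.8 CPM in tolerant HCC827 but stayed under 4 CPM in all PC9 libraries (differences -6.41 and -7.04, edgeR adjusted p = 0.00949 and 0.00851). TNC, the matrix protein tenascin C, had 18.2 and 21.5 CPM in tolerant and 24.2 and 17.7 CPM in untreated PC9, and 26 and 27.6 CPM in tolerant and 1222 and 652 CPM in untreated HCC827 (difference 5.05, SE 0.47, edgeR adjusted p = 0.00851). For TNC the difference lay in HCC827, whose tolerant cells reached the level that PC9 had with and without drug.

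**Figure D5:**
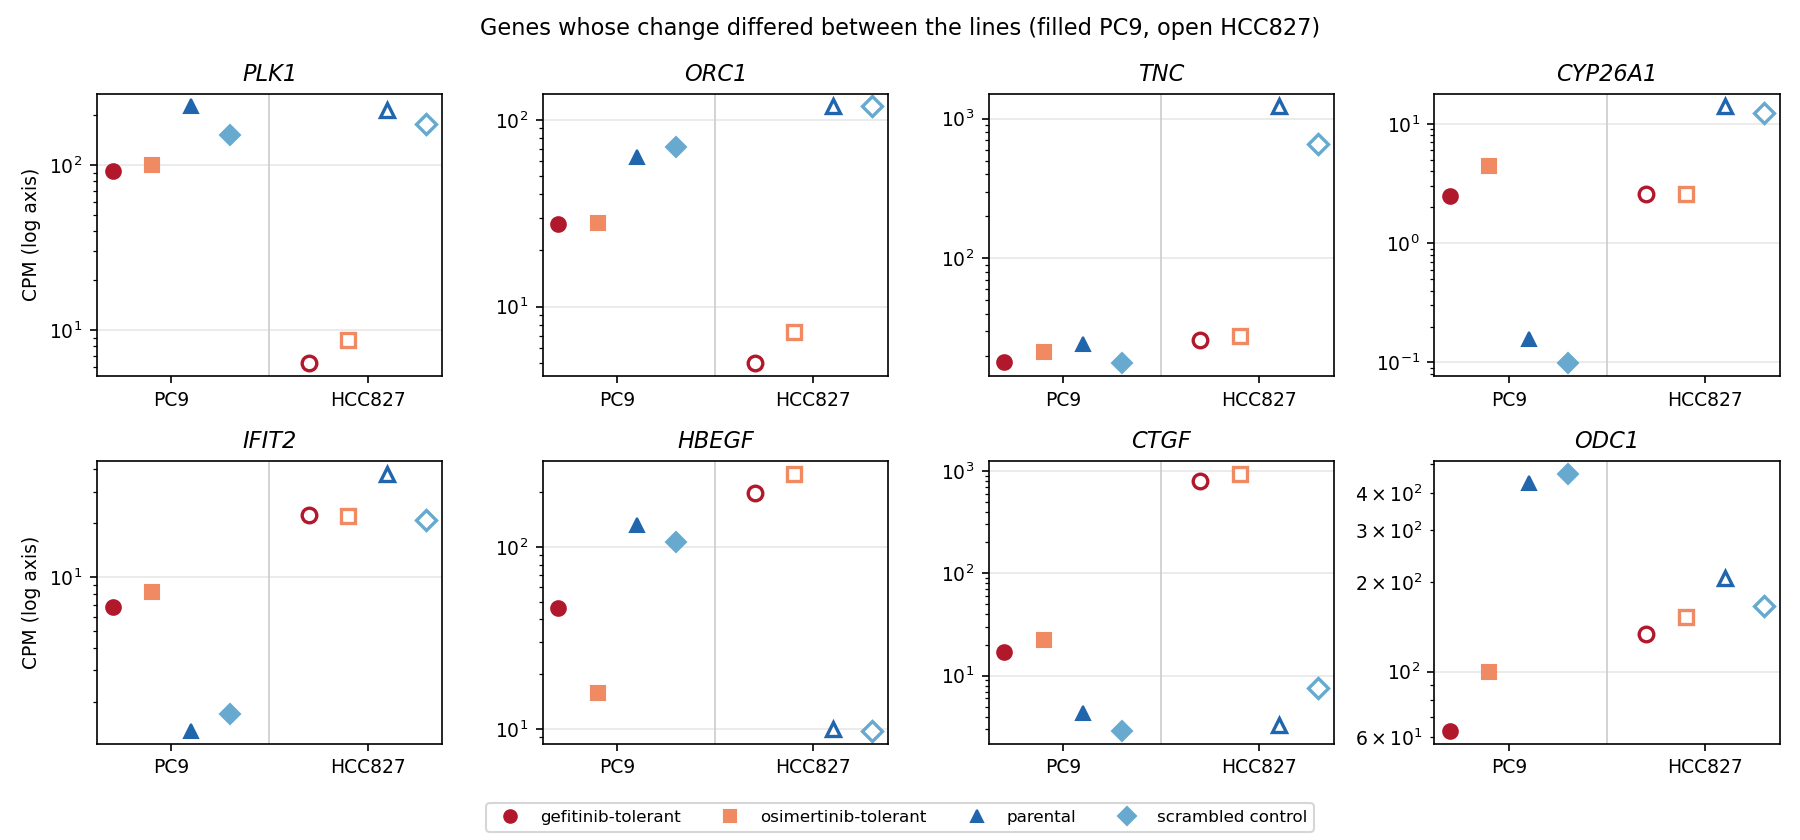
Levels of 8 genes in the PC9 libraries (filled) and HCC827 libraries (open), in CPM on log axes that differ between panels, with 1 point per library and tolerant cells left of untreated cells in each line. PLK1 and ORC1 are lower in tolerant cells of both lines but by far more in HCC827, HBEGF and CYP26A1 move in opposite directions, and ODC1 is low mainly in tolerant PC9, at 63.1 and 99.3 CPM against 431 and 464 CPM.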

How the data were processed

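Total RNA (mirVana) went into Illumina TruSeq libraries of mRNA, per the labels' protocols. Reads were processed with Bowtie2 and RSEM on GRCh37, per the submitters' processing notes, whose versions and settings were not given in the sources used here. RSEM estimated counts per gene were deposited by the authors in 3 tables. Another table of the authors gives each library's reads and its percent of Q30 bases, per the file headers. The percent of reads counted in genes (87.4 to 91.17 in the 4 PC9 libraries) was computed from both and used only to check depth. Rounding to whole numbers, which the test needs, altered 64.0% of the nonzero expected counts that the authors deposited. The scrambled control columns repeated between tables were identical, and 0 pairs of distinct libraries were.

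Counts were tested with edgeR 4.0.16 in R 4.3.3 (quasi-likelihood test, TMM scaling, filterByExpr) in 1 fit of 8 libraries with 4 group means and 4 residual degrees of freedom, with Benjamini-Hochberg adjustment over 19934 genes and a threshold of 0.05. The SE was taken from the log2 fold change and its F statistic. Single libraries were compared as TMM-scaled CPM with a prior count of 2 and at least 10 CPM in either. DESeq2 1.42.0 and limma 3.58.1 were alternatives.

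The libraries, the 42 gene lists and the tests were chosen with earlier results of these data known. Genes named were the 12 largest called changes per direction with at least 10 CPM in the higher group and no overlap, the 6 largest line differences per direction, 10 genes of interest, from each list up to 4 calls or else the 2 nearest, the 5 largest per pair and direction, and the exceptions stated. List members named as examples that did not pass, and genes named to compare the drugs or the lines, were chosen after their values were seen. A few of these genes are left out of the text. Of the lists, those for snoRNA hosts, B7 ligands, ATF4, unfolded protein response, lysosome, histones, MHC, NF-kB, respiratory chain, fatty acids, collagens, metalloproteinases, alveolar, neuroendocrine and stromal genes are given in the closing section.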

Additional observations from a re-analysis of the deposited data

Results flagged for a closer look

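The genes below had a change in PC9 that differed from that in HCC827 by the interaction test of the same edgeR fit (value: log2 fold change in PC9 minus that in HCC827, each tolerant over untreated). Cell cycle genes had the smaller decrease in PC9: PLK1 3.73, AURKB 3.44, CDT1 3.46, MCM10 3.47 and ORC1 2.99 (edgeR adjusted p between 0.00851 and 0.00899). Interferon-related genes had positive values, at 3.48 for IFIT1 (edgeR adjusted p = 0.0284), 2.69 for IFIT2 and 3.12 for GBP4.

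Other genes with a higher change in PC9 were CYP26A1 at 7.03, TNC at 5.05, PPFIA4 at 4.84, STC1 at 4.64, EGLN3 at 3.80, PNRC1 at 1.85 and IL18 at 1.85 (edgeR adjusted p between 0.00851 and 0.0433). STC1, a secreted glycoprotein, had 49.0 and 38.4 CPM in tolerant and 20.5 and 11.2 CPM in untreated PC9, and 1.79 and 1.96 CPM in tolerant and 26.4 and 7.71 CPM in untreated HCC827. EGLN3, a HIF-regulated prolyl hydroxylase, had 35.3 and 57.8 CPM in tolerant and 13.4 and 14.3 CPM in untreated PC9, and 20.6 and 21.9 CPM in tolerant and 134 and 42.3 CPM in untreated HCC827.

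Genes with a lower change in PC9 were NR4A3 at -7.04, HBEGF at -6.44, FOSB at -6.41, RNASE1 at -6.01, FOXQ1 at -5.71, CTGF at -4.88, EDN1 at -4.50, EFNB1 at -2.41, EFNB2 at -2.27, ODC1 at -2.09, JAG1 at -1.95 and STEAP3 at -1.79 (edgeR adjusted p between 0.00851 and 0.0411). FOXQ1 and RNASE1 were at or under 0.134 CPM in both untreated HCC827 libraries, so the size of their values depends on the prior count.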

How the results depend on the processing

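The replicate number marks a drug or a kind of control, shared by PC9 and HCC827 but not by tolerant and untreated cells. With it as a block across the lines, a fit chosen after seeing the data with 2 residual degrees of freedom, edgeR called 4 genes in tolerant PC9 and 93 line differences. Same-numbered libraries of the lines deviated from their group means with a correlation of -0.03 for tolerant and 0.08 for untreated cells, so the number is not treated as a pairing. The count of genes changed in tolerant PC9 was 275, and it was 1786 with no filter on low counts, 2111 with DESeq2, 584 with parental cells alone, 0 with the 4 PC9 libraries alone (3426 at an unadjusted p under 0.05), 3593 with all 4 drug-free PC9 libraries, and 0 to 621 with 1 library left out. The count of line differences was 249, and it was 1049, 930, 728 and 1041 under the first 3 and the fifth of these settings, and 0 to 246 with 1 library left out. With parental cells alone each line had 1 untreated library, so the counts of that setting are not read as support. The cause was not tested. With a minimum of 1 CPM in place of 10, the genes past 2-fold numbered 3022 and 3632 for gefitinib-tolerant and osimertinib-tolerant over parental cells, 2990 and 4281 over the scrambled control, 1523 between the drugs and 2482 between the untreated libraries. No called gene named in the text reversed, which for genes called in tolerant PC9 is fixed where a library is left out, since their groups do not overlap. Among genes that did not pass, SDHD was -0.02 with RLE scaling and DESeq2, -0.01 unfiltered, -0.04 with parental cells alone, -0.22 with 4 drug-free libraries, and -0.14 to 0.18 with 1 library left out. VHL ran from -0.56 to 0.24 and BCL2L11 from -0.29 to 0.46 with 1 library left out, and BCL2L11 was -0.24 with parental cells alone. Each drug has 1 PC9 library, which limits every statement on a single drug.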

Other observations

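Lists not described above held few calls, where 1.38% of all genes tested were called. In 5 of them edgeR called 1 gene each: VTCN1 rose among 6 B7 family ligands (list median -0.19), COL4A4 among 24 collagen and basement membrane genes (0.16), VLDLR among 20 ATF4 amino acid response genes (-0.07) and SYT1 among 8 neuroendocrine markers (0.02), and AGPAT9 fell among 20 fatty acid and glycerolipid genes (-0.36). SYT1, a synaptic vesicle protein, had 6.07 and 9.53 CPM in tolerant PC9, and 1.5 and 2.70 CPM in untreated PC9 (edgeR adjusted p = 0.048).

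EdgeR called 0 genes in the lists that follow, given with the count at an unadjusted p under 0.05, the DESeq2 count and the list median, while limma voom called 0 in each. Over all 19934 genes tested, 4452 had an unadjusted p under 0.05 and DESeq2 called 2111, so list counts near these shares show nothing particular. Lysosome and autophagy genes had 8 of 25, 5 and 0.26. Nuclear-encoded respiratory chain genes had 8 of 29, 6 and -0.27. Unfolded protein response genes had 7 of 16, 2 and -0.41. MHC presentation genes had 4 of 19, 2 and 0.50, and NF-kB and inflammatory genes had 4 of 25, 2 and 0.09. Alveolar and airway genes had 4 of 20, 2 and 0.48, and metalloproteinases and their inhibitors had 3 of 15, 2 and 0.64. Line identity genes had 3 of 12, 2 and 0.22, and fibroblast and endothelial markers had 3 of 10, 1 and 0.57. Leukocyte markers had 3 of 10, 0 and 0.65, replication-dependent histones had 1 of 20, 0 and 0.58, snoRNA host genes had 1 of 11, 1 and -0.15, and mitochondrially encoded genes had 0 of 13, 0 and 0.26. The last of these medians and that of the histones turned with the untreated library. The histone medians were 1.72 and 1.47 for gefitinib-tolerant and osimertinib-tolerant cells over parental cells, and -0.15 and -0.19 over the scrambled control, and the list median ran from -0.18 to 1.99 over the alternatives. The mitochondrial medians were -0.17 and -0.41 over parental cells, and 1.41 and 1.28 over the scrambled control, and the list median ran from -0.26 to 1.45.

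CEACAM6, an epithelial adhesion glycoprotein, separated the drugs, with 737 CPM in gefitinib-tolerant and 18.4 CPM in osimertinib-tolerant PC9, and 420 and 930 CPM in parental and scrambled control PC9. With 1 library per drug this has no test.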
